A study of Mus musculus with 9 samples.

Results

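Ligated mouse hearts that had received implanted cells were compared with sham-operated hearts, with the levels of all genes in the infarct border zone as the measure. The comparison used 6 of the 9 RNA-seq libraries of the study, namely all 3 of the hearts with cells and all 3 of the sham hearts, and it covered the 13825 of 53465 gene IDs that a filter on low counts kept. The other 3 libraries came from ligated hearts without cells and served to sort the genes into those apart from sham in both ligated groups and those apart from sham only with cells. All animals were of the NOD-SCID strain, which is immunodeficient and lacks functional T and B lymphocytes. The sham group had surgery without ligation, the ligation group had a coronary artery tied off, and the cell group had the same ligation together with implantation of cells that the labels call FOXO3-GE-MPCs, without saying how they were made, how many were given or at what time. The labels assign all 3 groups to the border zone, although a sham heart has no infarct. Age, sex and the interval after ligation are not in the labels, no sham heart with implanted cells was analysed here, and the labels do not say whether each library came from its own animal, so p-values measure the spread between these samples, which may be technical. In the source field cell replicates 2 and 3 carry the names FOXO4 and FOXO5 in place of FOXO3, whereas their titles and treatment entries name FOXO3.

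When a coronary artery is blocked, cardiomyocytes in the territory it supplies die and are replaced by a collagen scar. Surviving muscle beside the scar takes up more mechanical load, returns to a fetal pattern of gene expression that includes natriuretic peptides and slow myosin, and loses part of its capacity to oxidise fatty acids. Macrophages clear the dead tissue, fibroblasts lay down matrix under the influence of transforming growth factor beta, and capillaries are lost or rebuilt.

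The 6 libraries held 6130726 to 7041705 gene counts, and the ligated hearts without cells held 4549268 to 7515052. Members of the adult sarcomere list, the contractile genes of ventricular muscle, summed to 66178 to 67321 counts per 1e6 counts (CPM) in sham and to 50675 to 52434 CPM with cells, so both groups held ventricular muscle. Mitochondrially encoded genes took 19.1% to 19.9% of gene counts in sham, 12.5% to 13.9% in ligation and 14.28% to 14.34% with cells. Sham replicate 1 stood apart in Gapdh, a glycolytic enzyme, with 113, 619 and 593 CPM in the 3 sham libraries. Gapdh was at 228, 196 and 163 CPM in ligation and 102, 161 and 96.7 CPM with cells, so sham replicate 1 lay within the range of the cell group. The gene still passed as lower with cells than in sham (edgeR adjusted p 2.43e-04) and is counted among the lower glycolysis genes below. T cell markers summed to 5.27 to 7.94 CPM in sham and 6.77 to 7.52 CPM with cells, and Cd3d and Cd8b1 had no count in either group. B cell and plasma cell markers summed to 12.2 to 18.5 CPM in sham, 18.5 to 27.3 CPM in ligation and 8.74 to 14.1 CPM with cells, 1 of the 2 tested being higher and 1 lower with cells than in sham. The lower one was Ighm, the heavy chain of immunoglobulin M, at 11.2, 10.4 and 8.57 CPM in sham, 13.6, 15.3 and 18 CPM in ligation and 6.52, 3.19 and 7.2 CPM with cells, and Ms4a1 had no count in sham or with cells. Inside the files, column names pair sham replicates 1 and 2 and ligation replicates 2 and 3, although every pair of libraries in a group differed by more than sampling noise; with each such pair summed into 1 library, 5365 genes were called in the comparison given next in place of 5661. Foxo3, the mouse gene of the factor named in the cell label, was at 73.3, 71.5 and 65.4 CPM in sham and 73, 78.5 and 73.3 CPM with cells, with a log2 fold change of 0.10 ± 0.07 (SE) and an edgeR adjusted p of 0.251. Counts were made against mouse genes, and RNA of the implanted cells was not analysed here.

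Against sham, 5661 genes (40.9% of those tested) passed an adjusted p-value under 0.05 in edgeR's quasi-likelihood test, 2899 of them higher (21%) and 2762 lower (20.0%) in the hearts with cells. These genes are called higher or lower below, and counts of list members are to be read beside these shares of all tested genes. Higher genes made up 51.2% of the calls, and 73.1% when libraries were scaled by their totals alone, a scaling that moved the median log2 fold change of all genes from -0.01 to 0.15. Most differences were small, with a median size of 1.43-fold among the called genes, and 592 genes (4.28%) were called and at least 2-fold higher while 440 (3.18%) were called and at least 2-fold lower. With genes that share sequence with other genes left out, the 440 became 269. In ligated hearts without cells 5277 genes (38.2%) were called against the same sham libraries, 2783 higher (20.1%) and 2494 lower (18%). Both comparisons share the sham libraries. Between the hearts with and without cells 1365 genes (9.87%) were called, 579 higher (4.19%) and 786 lower (5.69%) with cells. The remodelling that remained with cells, counted as genes called against sham in both ligated groups with the same sign, comprised 2058 higher genes (14.9%) and 1934 lower genes (14.0%). Of these 3992 genes, 3536 were not called between the hearts with and without cells, 240 were called there and lay farther from sham with cells, and 216 were called there and lay nearer to sham with cells. Genes called only with cells, meaning called against sham and in the same direction against ligation while ligation itself was not called against sham, numbered 399 (2.89%), with 193 higher (1.4%) and 206 lower (1.49%). The 193 fell to 123 without cell replicate 2 and to 124 without cell replicate 3. Another 1192 genes were called against sham in the hearts with cells but neither in ligation against sham nor between the ligated groups, so no test here separated the hearts with cells from those without in these genes. In bulk tissue, fewer cells of a type and less RNA per cell cannot be told apart.

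**Figure D1:**
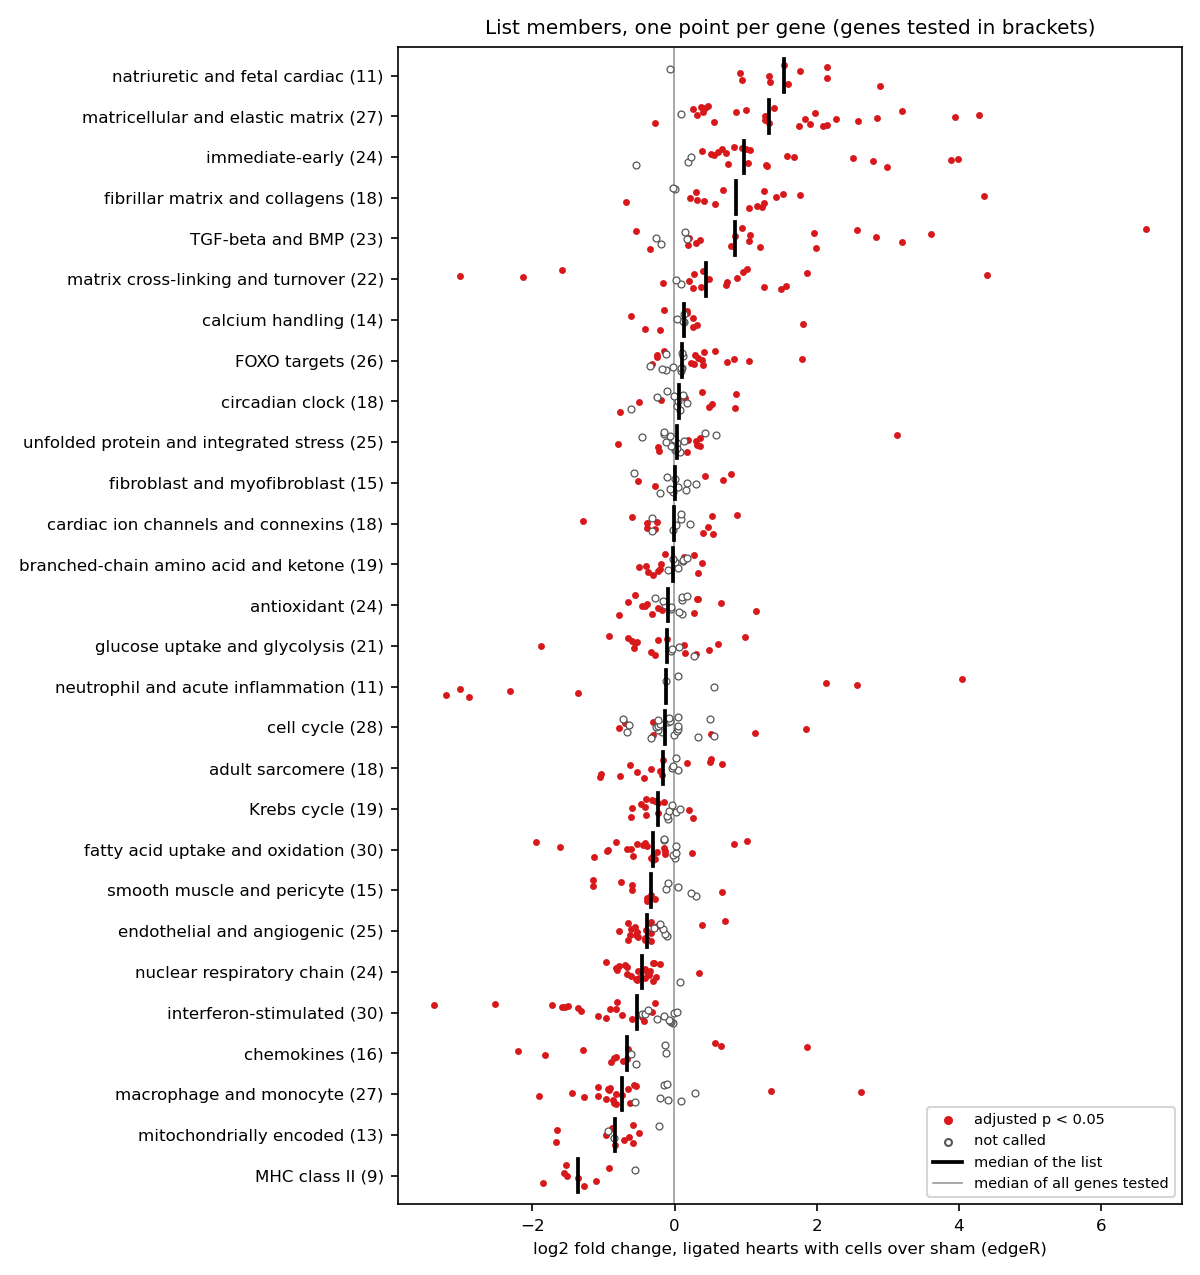
Log2 fold change of ligated hearts with cells over sham (horizontal axis) for each tested member of the 28 process lists (vertical axis, number of genes tested in brackets), with filled points for genes at an adjusted p under 0.05 and open points for the others. Black ticks are list medians and the grey line is the median of all 13825 genes. The natriuretic and fetal list has the highest median, 1.54, and the MHC class II list the lowest, -1.35.

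Genes of the stretched and fetal heart rose in the hearts with cells. Of 11 tested members of the natriuretic and fetal cardiac list, 10 were higher and 0 lower than sham. Their median log2 fold change was 1.54, where the median of all genes tested was -0.01. In ligation 7 were higher than sham and 4 lower, with a median of 0.59. Nppa, Myl4, Myl7, Sln and Mybphl of this list are also on the atrial marker list. Nppb, which encodes B-type natriuretic peptide and is made by ventricular muscle under stretch, was at 471, 479.9 and 487 CPM in the 3 sham libraries, 1229, 1192 and 1186 CPM in the ligation libraries and 1478, 1438 and 1448 CPM with cells. The 3 groups did not overlap, and the cell group differed by 1.60 ± 0.04 from sham on the log2 scale (edgeR adjusted p 8.75e-18) and 0.28 ± 0.04 from ligation (edgeR adjusted p 2.52e-05). Ankrd1, a stress-responsive protein of the sarcomere and nucleus, was at 1489, 1424 and 1588 CPM in sham, 5766, 5459 and 5626 CPM in ligation and 6638, 6745 and 6554 CPM with cells, a 4.43-fold difference from sham. Again every library with cells lay above every ligation library. Myh7, the slow myosin heavy chain of the fetal mouse ventricle, rose 2.53-fold over sham, from 458, 447 and 435 to 1058, 1219 and 1111 CPM, and its cell libraries overlapped those of ligation (1036, 1021 and 1059.9 CPM). Acta1, skeletal alpha-actin, was at 907, 972 and 964 CPM in sham and 1846, 1854 and 1815 CPM with cells, and 1209.6, 1257 and 1308 CPM in ligation. Xirp2, a protein of the intercalated disc, rose 3.39-fold and Nppa, atrial natriuretic peptide, 7.43-fold, although Nppa spread widely (626, 1204 and 548 CPM with cells) and 56.8% of its 31-base words also occur in another gene, so its counts are uncertain. Actc1, cardiac alpha-actin, was the member not called.

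Part of that list marks the atrium, and in 3 of those genes the ligated groups with and without cells lay on opposite sides of sham. Myl4, the atrial essential light chain, was at 195, 184 and 214 CPM in sham, 160.0, 139.6 and 133 CPM in ligation and 494, 506 and 494 CPM with cells. Its level was 2.51-fold above sham with cells (log2 1.33 ± 0.06, edgeR adjusted p 1.06e-12) and below sham without them (log2 -0.46 ± 0.07, edgeR adjusted p 9.59e-06). Myl7, the atrial regulatory light chain, was at 154, 155 and 164 CPM in sham, 102, 106 and 87.9 CPM in ligation and 286, 297 and 315 CPM with cells. Sln, sarcolipin, which restrains the calcium pump of atrial muscle, was at 61.2, 66.6 and 70.6 CPM in sham, 54.1, 55.7 and 56.4 CPM in ligation and 195, 171 and 212 CPM with cells. The groups did not overlap in any of these 3 genes, and the cell group was the highest in each. Mybphl, an atrial homologue of myosin binding protein, rose 4.42-fold over sham, to 45.4, 45.9 and 45.8 CPM. All 9 tested atrial markers were higher with cells than in sham, and none of the 9 was at 0 throughout a group. Their summed level was 590 to 680 CPM in sham, 1015 to 1787 CPM in ligation and 1865 to 2454 CPM with cells. The difference between sham and ligation in that sum rests on Nppa: without it, a choice made after seeing the data, the other members summed to 516 to 565 CPM in sham, 451 to 495 CPM in ligation and 1249.5 to 1317 CPM with cells, so ligation then lay below sham and the cell group above both. Bmp10, a growth factor of atrial muscle, was at 0, 0.165 and 0.159 CPM in sham, 2.98, 4.78 and 4.13 CPM in ligation and 0.567, 1.11 and 0.576 CPM with cells, and so lay 5.23-fold lower with cells than in ligation (edgeR adjusted p 4.73e-04). Whether the sampled pieces held different amounts of atrial tissue was not tested.

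**Figure D2:**
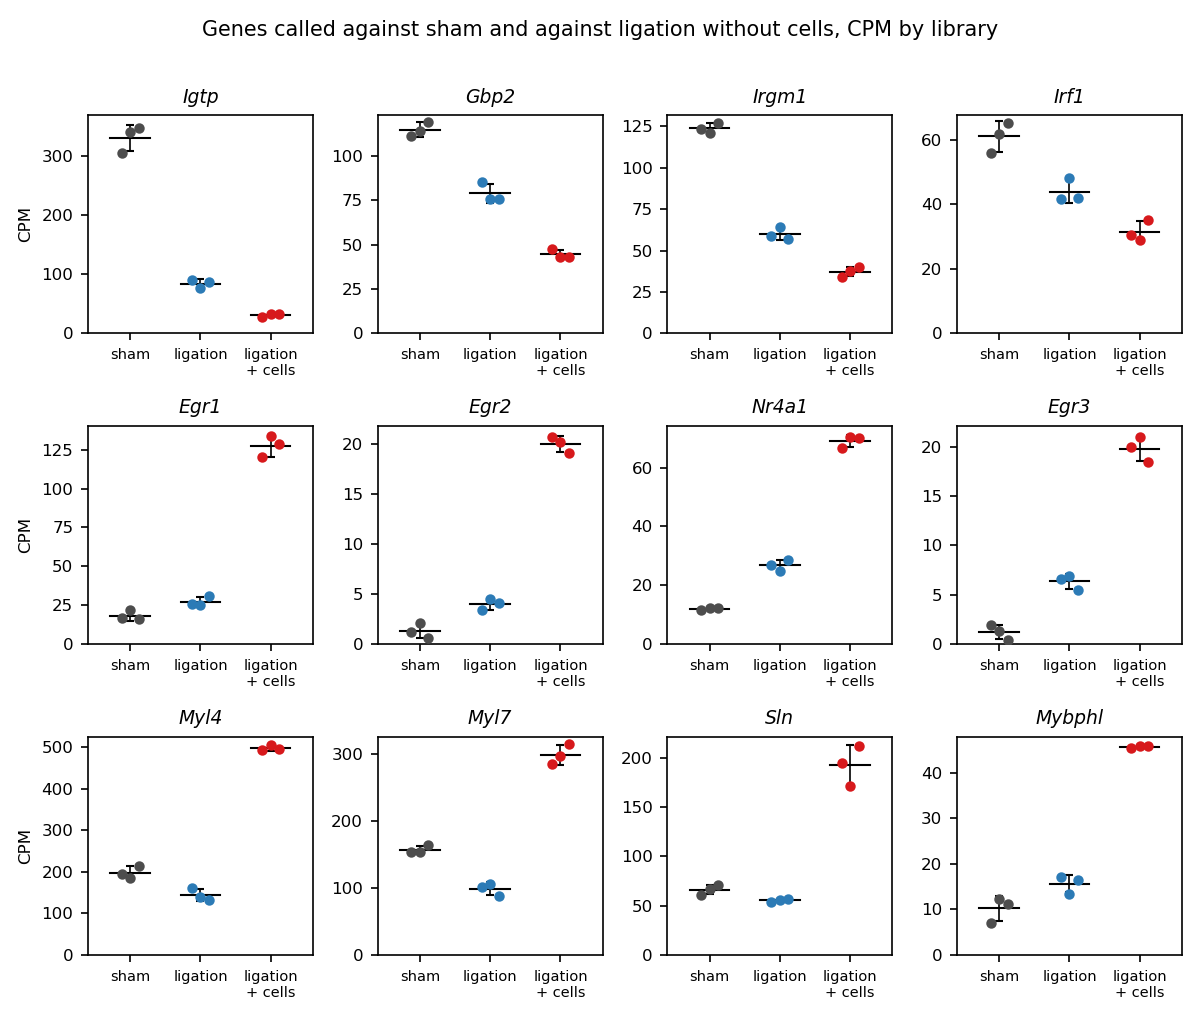
CPM in each library (points), group mean (line) and SD over 3 libraries (bars) for 12 genes that were called against sham and also against ligation without cells, with axes starting at 0. Igtp, Gbp2, Irgm1 and Irf1 are lowest with cells, while Egr1, Egr2, Egr3, Nr4a1 and the atrial genes Myl4, Myl7, Sln and Mybphl are highest there.

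Adult contractile genes moved less, and in both directions. Of 18 adult sarcomere genes tested, 10 were lower and 4 higher with cells, with a median log2 fold change of -0.17. Myl2, the ventricular regulatory light chain, was at 8712, 8514 and 8886 CPM in sham and 4127, 4351 and 4098 CPM with cells, a log2 difference of -1.05 ± 0.04 (edgeR adjusted p 1.34e-13). Tnni3, cardiac troponin I, was at 6168, 5957 and 6147 CPM in sham and 2887, 3183 and 2886 CPM with cells. In both genes the ligation libraries (4888, 4652 and 4102 and 3409.8, 3179.9 and 2901 CPM) overlapped those with cells and lay far below sham. Myh6, the fast myosin heavy chain that dominates the adult mouse heart, was 1.35-fold lower than sham with cells. Desmin (Des), the intermediate filament of muscle, went the other way and was 1.58-fold higher, at 2906, 2977 and 2913 CPM against 1868, 1848 and 1839 CPM. Tnnt2, cardiac troponin T, was called only with cells but by a small margin, 8358, 8455 and 8094 CPM against 9247, 9620.3 and 9247 CPM in sham.

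In the calcium handling list 6 of 14 genes were higher and 4 lower. Slc8a1, the sodium-calcium exchanger of the cell surface, rose 3.48-fold, from 32.6, 33.3 and 28.6 CPM in sham to 105, 116 and 108 CPM with cells. Its cell libraries also lay above all ligation libraries (86.7, 81.8 and 83.9 CPM). Atp2a2, the pump that returns calcium to the sarcoplasmic reticulum, was at 6739, 6556 and 6818 CPM in sham, 5349, 5159.9 and 4991 CPM in ligation and 5837, 5833 and 5764 CPM with cells, so the cell group lay between the others without overlap. Casq2, calsequestrin, which binds calcium inside the reticulum, was called only with cells, at 827, 829.9 and 822 CPM against 681, 639 and 665 CPM in sham and 707, 710.2 and 679 CPM in ligation. Among 18 ion channel and connexin genes 5 were higher and 6 lower, and their median changed sign with the scaling, from -0.004 to 0.155 with library totals alone. Kcnj5, a potassium channel subunit abundant in the atrium, was the member called only with cells, at 57, 58 and 60.8 CPM against 45, 44 and 38.6 CPM in sham. Gja1, the main ventricular connexin, rose 1.44-fold.

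Scar matrix stayed well above sham in the presence of cells. Of 18 collagen genes 15 were higher and 1 lower (median 0.87), and of 27 matricellular and elastic matrix genes 25 were higher and 1 lower (median 1.33). Comp, a matrix protein better known from cartilage, was at 14.8, 16.1 and 18.3 CPM in sham, 267, 258 and 277 CPM in ligation and 252, 257 and 249 CPM with cells, 15.4-fold above sham (log2 3.94 ± 0.07, edgeR adjusted p 2.45e-19). Col3a1, a chain of the fibrillar collagen of young scar, was at 466, 469 and 477 CPM in sham, 1201, 1220.1 and 1261 CPM in ligation and 1031, 1054 and 1062 CPM with cells. The cell libraries of Col3a1 lay between the other groups, whereas Col1a1 (238, 249 and 253 CPM in sham, 511, 492 and 532 CPM with cells) overlapped ligation (509, 547 and 615 CPM). Postn, periostin, a marker of activated fibroblasts, was 4.24-fold above sham and Ccn2, connective tissue growth factor, 4.81-fold. Spp1, osteopontin, which macrophages secrete after infarction, was at 2.49, 2.8 and 1.9 CPM in sham, 26.8, 29.4 and 30.9 CPM in ligation and 14.9, 13.9 and 14.3 CPM with cells, so its level with cells remained 5.96-fold above sham while lying 2.03-fold below ligation. Thbs1, thrombospondin 1, an activator of latent transforming growth factor beta, was instead higher with cells (81.7, 82.4 and 83.1 CPM) than in ligation (54.3, 51.7 and 53.6 CPM) and in sham (21.5, 19.1 and 25.1 CPM). The basement membrane collagens Col4a1 and Col4a2 were not called, with log2 differences of 0.01 ± 0.04 and -0.02 ± 0.05.

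Of 22 matrix cross-linking and turnover genes, 16 were higher and 4 lower. Lox, lysyl oxidase, which cross-links collagen, was 2.82-fold above sham, and Timp1, an inhibitor of matrix metalloproteinases, 3.64-fold, from 10.9, 12.4 and 10 CPM to 39.6, 40.8 and 40.6 CPM. Timp4, the inhibitor typical of heart muscle, fell from 153, 149.9 and 165 CPM in sham to 49.9, 51.2 and 54.7 CPM with cells. Mmp12, the elastase of macrophages, was at 0.534, 0 and 0.635 CPM in sham and 7.8, 9.43 and 8.5 CPM with cells, which overlapped ligation (5.75, 8.39 and 6.88 CPM). Mmp3, stromelysin, was called only with cells, at 8.72, 10.9 and 10.3 CPM in sham, 8.74, 7.52 and 6.88 CPM in ligation and 1.56, 2.36 and 2.88 CPM with cells. The libraries with cells lay below all 6 others, 4.38-fold under sham (log2 -2.13 ± 0.24, edgeR adjusted p 5.43e-07), and 14.6% of the 31-base words of Mmp3 occur in other genes. Of the fibroblast and myofibroblast list, 3 of 15 were higher and 2 lower, and their summed level was 3636 to 3701 CPM in sham and 3653 to 3792 CPM with cells.

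Ligands and inhibitors of the transforming growth factor family rose together with the matrix, 17 of 23 tested members of the list being higher and 2 lower (median 0.86). Tgfb2 was at 14.1, 16.3 and 18.4 CPM in sham and 69.6, 67.7 and 58.2 CPM with cells, and Tgfb3 at 27.8, 22.2 and 27.1 CPM and 56.5, 54.1 and 67.3 CPM. Tgfb1, the isoform that immune cells release, was called only with cells and in the opposite direction, at 46, 48.8 and 49.3 CPM against 64.4, 64.4 and 53.5 CPM in sham and 59.4, 68.9 and 57.5 CPM in ligation. Fst, follistatin, which binds activins, rose 12.2-fold, from 0.356, 0.659 and 0.635 CPM in sham to 5.53, 8.18 and 7.2 CPM with cells.

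**Figure D3:**
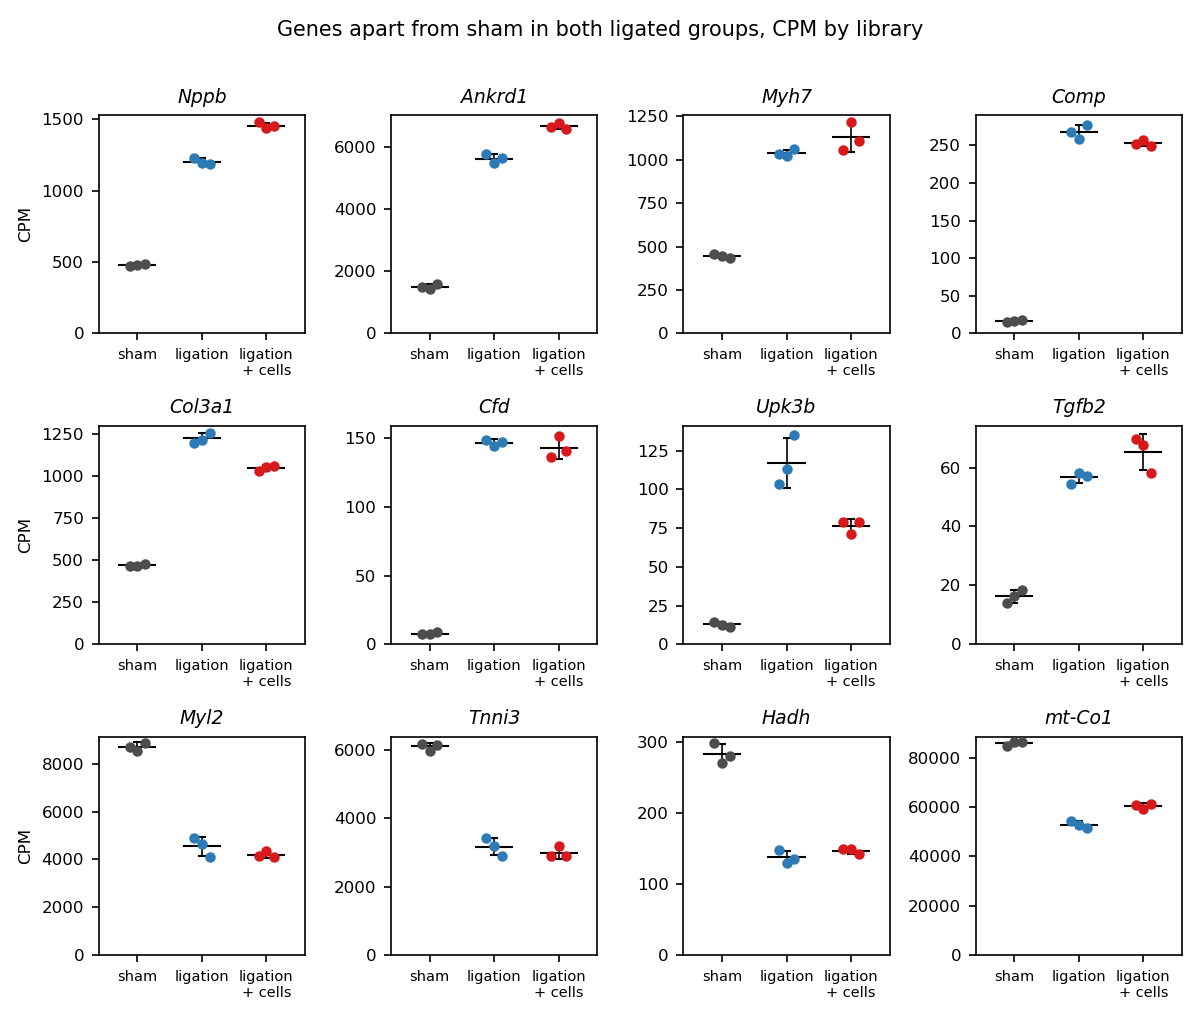
CPM in each library (points), group mean (line) and SD over 3 libraries (bars) for 12 genes called against sham in both ligated groups with the same sign, with axes starting at 0. In every panel the 3 sham libraries lie apart from the 3 libraries with cells, above them for Myl2, Tnni3, Hadh and mt-Co1 and below them for the other 8 genes.

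Markers of the surface layers of the heart rose with the matrix. Of 14 mesothelium and epicardium markers 12 were higher than sham with cells and 0 lower (median 2.23), and none was at 0. Their summed level was 66.5 to 81.4 CPM in sham, 337 to 394 CPM in ligation and 281 to 288 CPM with cells. Upk3b, a uroplakin of mesothelial cells, was at 14.6, 12.5 and 11.1 CPM in sham, 103, 113 and 135 CPM in ligation and 79.3, 71.3 and 79.1 CPM with cells, and Msln, mesothelin, at 5.52, 5.93 and 4.6 CPM in sham, 35.6, 38.1 and 36.8 CPM in ligation and 36.3, 34.1 and 33.4 CPM with cells. Adipocyte markers were divided, 6 of 11 being higher and 4 lower, and their summed level was lower with cells (1683 to 1805 CPM) than in sham (1976 to 2129 CPM), with 1625 to 1696 CPM in ligation. Cfd, adipsin, was at 7.65, 7.08 and 8.57 CPM in sham and 136, 152 and 141 CPM with cells, and Adipoq, adiponectin, at 1.42, 1.65 and 1.27 CPM and 16.7, 17.9 and 19.2 CPM, neither apart from its level in ligation by the test. The 4 lower members include Fabp4, which capillary endothelium of the heart also makes, at 1600.0, 1439 and 1622 CPM in sham and 1048, 1154 and 1014 CPM with cells. Their share in the matrix results was not tested.

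Most members of the lists for fatty acid oxidation, the Krebs cycle and the respiratory chain were lower than sham. In the fatty acid list 21 of 30 genes were lower and 3 higher (median -0.30), in the Krebs cycle list 11 of 19 were lower and 2 higher (median -0.23), among nuclear genes of the respiratory chain 22 of 24 were lower and 1 higher (median -0.46), and among mitochondrially encoded genes 10 of 13 were lower and 0 higher (median -0.83). The list medians of ligation against sham were -0.52, -0.25, -0.46 and -0.75 in the same order. Hadh, a dehydrogenase of beta-oxidation, was at 299, 270.3 and 280.0 CPM in sham, 147, 129.7 and 135 CPM in ligation and 149, 149 and 142 CPM with cells. Cd36, the fatty acid transporter, was at 1992, 1857 and 2036 CPM in sham, 1383, 1262 and 1256 CPM in ligation and 1636, 1587 and 1559 CPM with cells, and its 3 groups did not overlap. Lpl, lipoprotein lipase, which frees fatty acids at the capillary wall, was 1.36-fold lower than sham. Acsl1, which activates fatty acids for oxidation, was not called against sham at 0.01 ± 0.04 on the log2 scale (edgeR adjusted p 0.935), while ligation was at -0.31 ± 0.05 (edgeR adjusted p 1.19e-05) and the difference between the ligated groups at 0.32 ± 0.05 (edgeR adjusted p 5.76e-05).

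The 3 higher members of the fatty acid list were Pdk4, Acadvl and Ppara. Pdk4, the kinase that closes pyruvate dehydrogenase and spares glucose, was called only with cells, at 94.3, 97.2 and 89.2 CPM in sham, 106, 95.6 and 92.1 CPM in ligation and 170.2, 165 and 168 CPM with cells. It lay 1.79-fold above sham (log2 0.84 ± 0.06, edgeR adjusted p 8.79e-10) and 1.72-fold above ligation (edgeR adjusted p 2.13e-08), with no overlap. Ppara, the nuclear receptor that drives fatty acid oxidation genes, was at 6.05, 5.6 and 7.3 CPM in sham and 12.8, 14.7 and 10.9 CPM with cells. Oxct1, an enzyme of ketone body oxidation, belongs to the branched-chain amino acid and ketone list, of which 4 of 19 genes were higher and 8 lower (median -0.03, which turned to 0.13 with library totals alone and to 0.02 without cells replicate 1). It was called only with cells, as were Hibch and Bckdha of that list, each higher. Bckdha shares 54.6% of its 31-base words with other genes, so its counts are uncertain. Oxct1 was at 1049, 1012 and 1012 CPM against 843, 833 and 853 CPM in sham and 877, 890.5 and 848 CPM in ligation. In the glycolysis list 11 of 21 genes were lower and 6 higher, with a median of -0.10 that turned to 0.06 with library totals alone. Pkm, pyruvate kinase, was called only with cells, at 889, 909 and 862 CPM against 1014, 1077 and 1028 CPM, and so were Gpi1 and Ldha, each lower. Pkm and Gpi1 share over 20% of their 31-base words with other genes (34.7% and 21.6%).

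Vessel genes also stayed lower. Of 25 endothelial and angiogenic genes 18 were lower and 2 higher (median -0.39), with a summed level of 4537 to 4812 CPM in sham, 3243 to 3495 CPM in ligation and 3342 to 3464 CPM with cells. Kdr, the main receptor for vascular endothelial growth factor, was at 513, 523 and 513 CPM in sham, 266, 277 and 291 CPM in ligation and 330.2, 336 and 315 CPM with cells. Its cell libraries lay between the other groups. Vegfa, the growth factor itself, was 1.47-fold lower than sham at 236, 212 and 219.7 CPM, and overlapped ligation. Vegfc, the growth factor of lymphatic vessels, was the member called only with cells, at 21.6, 22.7 and 18 CPM, but 1 of its cell libraries lay within the sham range (15.1, 14.2 and 18.1 CPM). Among 15 smooth muscle and pericyte genes 9 were lower and 1, Des, higher.

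The macrophage list was lower in sum with cells than in either other group. Of 27 macrophage and monocyte genes, 18 were lower and 2 higher than sham with cells (median -0.74), while ligation against sham had 19 higher and 2 lower (median 0.68). The summed level of the list was 1172 to 1206 CPM in sham, 1995 to 2076 CPM in ligation and 820 to 845 CPM with cells. C1qa, a complement chain made by resident macrophages, was at 151, 155 and 133 CPM in sham, 220.3, 213 and 224 CPM in ligation and 92.6, 96.4 and 88.9 CPM with cells. Mrc1, the mannose receptor of resident macrophages, was called only with cells, at 61.9, 57.8 and 65.1 CPM in sham, 76.9, 69.5 and 61.1 CPM in ligation and 28.9, 31.8 and 26.6 CPM with cells. Cd163, a haemoglobin scavenger receptor, was lower in both ligated groups, at 38.6, 36.4 and 35.7 CPM in sham, 27.7, 25.8 and 28 CPM in ligation and 8.08, 12.2 and 9.08 CPM with cells. The cell libraries of all 3 genes lay below all 6 others.

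The 2 macrophage genes above sham with cells were Gpnmb and Lgals3, which phagocytes raise after taking up debris. Gpnmb was at 3.92, 3.79 and 4.76 CPM in sham, 32, 29.2 and 24.8 CPM in ligation and 26.4, 26.2 and 24.3 CPM with cells, so both ligated groups overlapped far above sham. Other members were not called against sham. Lyz2, lysozyme, with 32.8% of its 31-base words in other genes, was at 296, 282 and 269 CPM in sham and 266, 264 and 253 CPM with cells (log2 -0.11 ± 0.05, edgeR adjusted p 0.0743), against 623, 634 and 597 CPM in ligation. Ccr2, the receptor of recruited monocytes, was at 3.92, 4.45 and 4.6 CPM in sham and 3.83, 4.16 and 3.31 CPM with cells (log2 -0.20 ± 0.23, edgeR adjusted p 0.525), against 15.3, 13.2 and 16.6 CPM in ligation. The remaining genes called only with cells on this list were Mertk, Lyve1 and Fcgr3, each lower. The class has sharp edges: Timd4, another marker of resident macrophages, was left out of it at an adjusted p of 0.0504 against ligation in edgeR, and Klf15, a transcription factor of muscle metabolism, was let in at 0.0486.

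Of 16 chemokine genes tested 9 were lower and 3 higher than sham with cells (median -0.67). Ccl12, which draws monocytes, was called only with cells, at 7.65, 9.06 and 9.84 CPM in sham, 10.7, 8.25 and 8.63 CPM in ligation and 2.13, 2.22 and 3.17 CPM with cells. Ccl9, another attractant of myeloid cells and also called only with cells, was at 28.5, 31.3 and 30.6 CPM in sham, 33.9, 36.8 and 36.6 CPM in ligation and 15.5, 19.7 and 14.8 CPM with cells. Cxcl13, an attractant of B cells, was above sham in both ligated groups but by less with cells, at 1.6, 0.824 and 0.794 CPM in sham, 16.6, 16.6 and 18.5 CPM in ligation and 2.98, 5.13 and 3.6 CPM with cells. The 11 neutrophil and acute inflammation genes tested were divided, 3 being higher and 5 lower than sham with cells. Their median of -0.12 turned to 0.04 with library totals alone. In ligation 5 were higher than sham and 2 lower, and 2 were lower in both ligated groups. S100a8 and S100a9, calcium-binding proteins packed in neutrophils, fell 7.4-fold and 9.29-fold below sham with cells. Saa3, an acute-phase protein, rose 16.5-fold to 24, 24.1 and 21.8 CPM. Erythroid markers had 0 of 6 genes higher and 3 lower, with a summed level of 872 to 919 CPM in sham, 1500 to 1600 CPM in ligation and 663 to 681 CPM with cells, and most of that sum is haemoglobin. It moved in the same order as the macrophage sum, and its part in these results was not tested.

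Genes of antigen presentation by MHC class II were lower with cells than in either other group. Of 9 tested members 8 were lower than sham and 0 higher (median -1.35), and 8 were lower than ligation (median -1.80), whereas ligation against sham had 3 higher and 0 lower (median 0.34). H2-Ab1, the beta chain of the I-A molecule, was called only with cells, at 80.6, 86 and 84.8 CPM in sham, 79.5, 77.8 and 92.6 CPM in ligation and 21.3, 24 and 24.2 CPM with cells. It lay 3.62-fold below sham (log2 -1.86 ± 0.08, edgeR adjusted p 5.10e-13), while ligation and sham overlapped. H2-Aa, its alpha chain partner, was at 55.5, 54.5 and 60.6 CPM in sham, 78.2, 85.5 and 81.5 CPM in ligation and 22.1, 24.4 and 24.1 CPM with cells. Ciita, the coactivator that class II genes depend on, was at 4.45, 3.95 and 3.97 CPM in sham, 4.05, 7.24 and 7.13 CPM in ligation and 1.42, 1.53 and 1.3 CPM with cells. H2-DMa, H2-DMb1 and H2-DMb2, which load peptides onto class II molecules, were also called only with cells. H2-Ob was not called, at -0.56 ± 0.41, and H2-Oa had no count in any library. Class II genes are expressed by macrophages, dendritic cells and B cells. The macrophage sum, which shares the member Cd74, was also lowest with cells. The B cell and plasma cell sum and Ighm, given above, had the same order of group means, highest in ligation and lowest with cells. Blk, the other B cell marker tested, instead had its highest mean with cells. It was at 4.09, 3.13 and 2.22 CPM in sham, 3.62, 4.78 and 6 CPM in ligation and 7.09, 4.58 and 6.19 CPM with cells. The part of either cell type in the class II result was not tested.

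**Figure D4:**
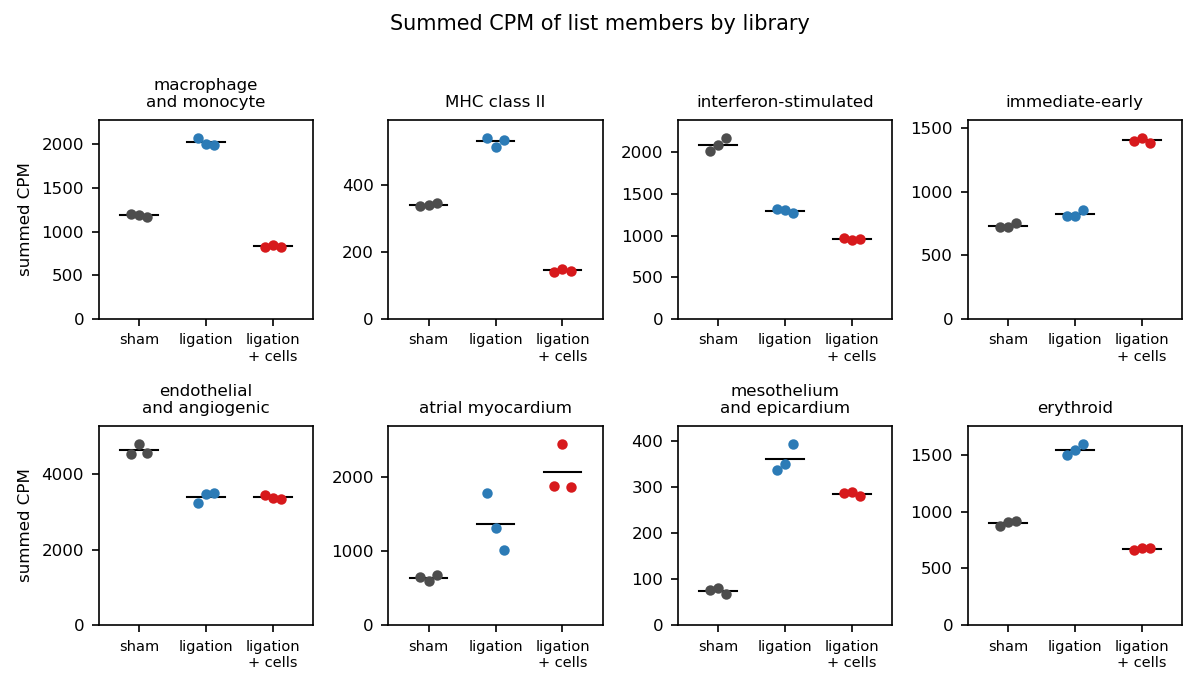
Summed CPM of all members of 8 lists in each library (points) with the group mean (line), for sham, ligation and ligation with cells, with axes starting at 0. The macrophage, MHC class II, interferon-stimulated and erythroid sums are lowest with cells, the immediate-early and atrial sums are highest there (most of the ligation group's atrial sum is Nppa), and the endothelial sums of both ligated groups lie together below sham.

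The summed level of interferon-stimulated genes was lower in ligation than in sham and lowest with cells, and members differed widely in how far they fell. With cells 19 of 30 members were lower than sham and 0 higher (median -0.53), and in ligation 14 were lower and 2 higher (median -0.38). The summed level was 2009 to 2174 CPM in sham, 1265 to 1322 CPM in ligation and 950 to 966 CPM with cells. Promoter sequences are shown because the list is defined by response to interferon, and transcription factors of that response bind repeats of the letters GAAA. Upstream sequence from RefSeq (build GRCm38.p6, of a reference strain other than NOD, the 250 bases before each annotated start) was found for 20 of the 30 genes, and 12 of the 20 (60%) held the letters GAAA, any 2 bases and GAAA again on either strand, against 3.46% of 27025 genes with a sequence. Shown here, 5′ to 3′ on the strand of the gene and cut where an annotated exon begins, are the surroundings of the matches in a pair of genes that fell and a pair that were not called. Capitals mark the matches, which appear as TTTC, any 2 bases and TTTC where they lie on the other strand, and overlapping matches run together.
Igtp (chr11:58199462-58199555, plus strand): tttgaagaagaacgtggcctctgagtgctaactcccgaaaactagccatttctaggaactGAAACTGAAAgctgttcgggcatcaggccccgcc
Gbp7 (chr3:142530223-142530335, plus strand): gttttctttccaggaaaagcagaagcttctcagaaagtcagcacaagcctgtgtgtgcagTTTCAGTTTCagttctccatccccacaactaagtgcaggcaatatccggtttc
Isg15 (chr4:156200819-156200956, minus strand): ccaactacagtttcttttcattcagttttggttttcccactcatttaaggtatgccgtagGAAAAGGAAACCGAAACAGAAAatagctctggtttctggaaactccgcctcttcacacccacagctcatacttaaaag
Ifit1 (chr19:34640744-34640870, plus strand): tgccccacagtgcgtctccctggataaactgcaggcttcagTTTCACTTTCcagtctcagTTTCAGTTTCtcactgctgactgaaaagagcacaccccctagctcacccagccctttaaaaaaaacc

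Igtp, an immunity-related GTPase that guards against intracellular parasites, was at 304, 339 and 346 CPM in sham, 90.6, 76 and 86.1 CPM in ligation and 28.4, 33.2 and 33.3 CPM with cells. It lay 10.4-fold below sham with cells (log2 -3.38 ± 0.08, edgeR adjusted p 1.03e-17) and 2.66-fold below ligation. Gbp7, a guanylate-binding protein, was at 101, 98.4 and 124 CPM in sham, 52.8, 55.1 and 58.1 CPM in ligation and 40.4, 36.8 and 36.9 CPM with cells. Neither gene had overlapping groups. Isg15, a ubiquitin-like protein, was at 19, 24.9 and 23 CPM in sham and 24.5, 22.3 and 19.4 CPM with cells (log2 -0.02 ± 0.13, edgeR adjusted p 0.934), and Ifit1, which binds foreign RNA, at 26.3, 27.2 and 31.6 CPM and 27.8, 29.1 and 25.6 CPM (log2 -0.05 ± 0.10, edgeR adjusted p 0.756). Genes with a match thus included some that fell and some that were not called, and the share with a match was not compared between them. The members that fell furthest were the GTPases Igtp, Iigp1 (53.9, 45.1 and 51.3 CPM with cells against 283, 279 and 306 CPM in sham), Irgm1, Gbp6, Gbp3, Gbp7 and Gbp2, of which Igtp, Gbp6 and Gbp7 share at least 10% of their 31-base words with other genes, as do Isg15 and Ifit1. Irf1, a transcription factor of the interferon response, was at 55.9, 61.8 and 65.2 CPM in sham, 41.5, 48 and 42 CPM in ligation and 30.4, 28.9 and 35.1 CPM with cells. Irf7 and Zbp1 were called only with cells. Ciita and Cxcl9 respond to interferon as well, and Cxcl9 was at 35.4, 38.4 and 37.5 CPM in sham and 9.36, 6.66 and 8.07 CPM with cells.

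Of the 10 class II genes 7 had a promoter sequence, and 3 of the 7 (42.9%) held CTGATTGG, the Y box of class II promoters, on either strand, against 4.43% of all genes with a sequence. The surroundings of the match are shown for the pair of expressed genes that held it, with the match in capitals.
H2-Aa (chr17:34287824-34287934, minus strand): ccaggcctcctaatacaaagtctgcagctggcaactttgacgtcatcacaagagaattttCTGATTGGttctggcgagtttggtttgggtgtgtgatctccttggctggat
H2-Eb1 (chr17:34305745-34305866, plus strand): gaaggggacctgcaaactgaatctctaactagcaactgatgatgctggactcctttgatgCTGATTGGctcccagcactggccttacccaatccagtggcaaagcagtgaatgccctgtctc

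H2-Aa values are given above, and H2-Eb1, the beta chain of I-E, was at 72.4, 65.9 and 60.5 CPM in sham, 115, 117 and 125 CPM in ligation and 26.5, 36.1 and 29.8 CPM with cells, so both genes rose above sham in ligation and fell below it with cells. The other gene with the match, H2-Oa, had no count in any library.

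Immediate-early genes, which cells switch on within minutes of a stimulus, were higher with cells than in either other group. Of 24 members 21 were higher than sham and 0 lower (median 0.98), and 17 were also higher than ligation, while ligation against sham had 13 higher and 2 lower (median 0.35). Egr1, a zinc finger factor induced by growth signals and stretch, was at 16.7, 22.2 and 16.2 CPM in sham, 26, 25.3 and 30.8 CPM in ligation and 120.0, 134 and 129 CPM with cells. The 3 groups did not overlap, and the cell group lay 6.92-fold above sham (log2 2.79 ± 0.10, edgeR adjusted p 9.83e-15) and 4.62-fold above ligation. Egr2 was at 1.25, 2.14 and 0.635 CPM in sham, 3.41, 4.49 and 4.13 CPM in ligation and 20.7, 20.3 and 19.2 CPM with cells, and Fos at 2.67, 3.62 and 3.02 CPM in sham, 10, 8.54 and 8 CPM in ligation and 25.8, 23.9 and 25.2 CPM with cells. Nr4a1, an orphan nuclear receptor, was at 11.6, 12.4 and 12.2 CPM in sham, 27.1, 24.7 and 28.6 CPM in ligation and 66.5, 70.5 and 70 CPM with cells. In all of these the cell libraries were the highest.

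The members called only with cells were Jun, Dusp1, Atf3, Ier2 and Fosb. Jun, the partner of Fos in the AP-1 factor, was at 77.4, 71.2 and 77.9 CPM in sham, 81.2, 73.2 and 83.4 CPM in ligation and 127, 129 and 125 CPM with cells. Dusp1, a phosphatase that ends MAP kinase signals, was at 77.8, 80.7 and 87.5 CPM in sham, 68.2, 77.6 and 83 CPM in ligation and 141, 132 and 134 CPM with cells. Sham and ligation overlapped in both, and the cell libraries lay above all 6. Klf2 and Klf4, flow-responsive factors of endothelium, were lower than sham in ligation (log2 -0.21 ± 0.06 and -0.28 ± 0.07) and higher with cells (log2 0.61 ± 0.06 and 0.39 ± 0.06). Fosl1, Jund and Nr4a2 were not called, at -0.54 ± 0.31, 0.19 ± 0.10 and 0.23 ± 0.33.

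A pair of inducible chaperone genes, picked by the size of their change, was also higher in these libraries. Hspa1b, an inducible HSP70 chaperone, was called only with cells, at 11, 4.94 and 6.98 CPM in sham, 10.9, 10.1 and 11.5 CPM in ligation and 45.2, 40.1 and 53.2 CPM with cells, 6.07-fold above sham (log2 2.6 with an SE of 0.18, edgeR adjusted p 2.02e-10). Its neighbour Hspa1a was also called only with cells, at 6.38, 7.91 and 7.35 CPM against 1.25, 4.78 and 1.75 CPM in sham. The genes are near-identical copies, 68.1% of the 31-base words of Hspa1b occurring elsewhere, so the split of reads between them is uncertain. Their promoters were the same in all 128 bases around the GAANNTTC match, a core of the element that heat shock factor binds, which 7.73% of all genes with a sequence hold within 250 bases. The copy upstream of Hspa1b is shown with the match in capitals.
Hspa1b (chr17:34959275-34959402, minus strand): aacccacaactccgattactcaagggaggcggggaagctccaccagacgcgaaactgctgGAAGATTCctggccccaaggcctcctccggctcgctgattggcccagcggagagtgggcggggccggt

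In the unfolded protein and integrated stress list, which covers the chaperones of the endoplasmic reticulum, 7 of 25 genes were higher and 3 lower (median 0.03). Calr, calreticulin, was the member called only with cells and it was lower, at 332, 334 and 338 CPM against 377, 399.8 and 387 CPM in sham.

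**Figure D5:**
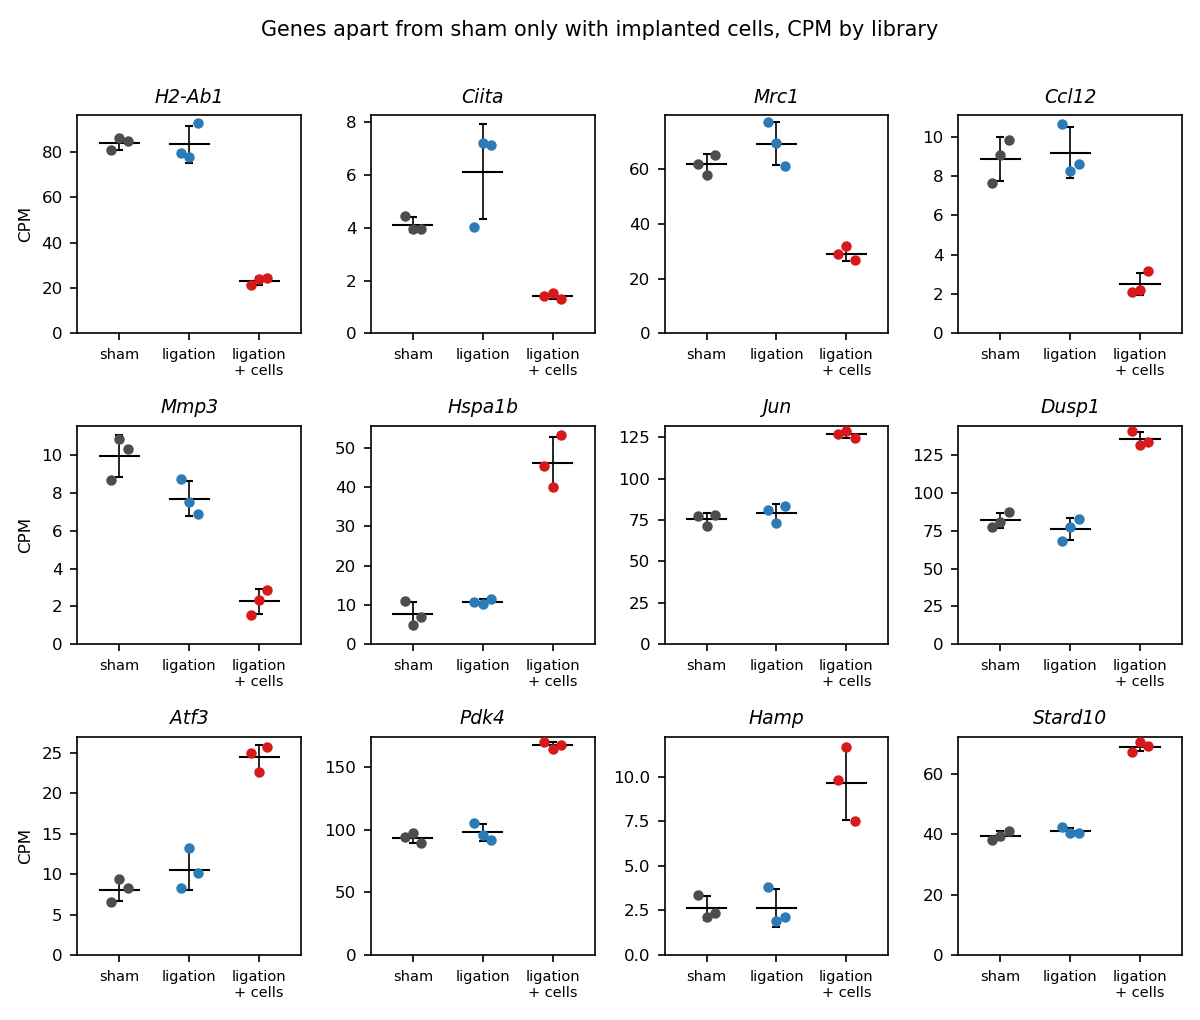
CPM in each library (points), group mean (line) and SD over 3 libraries (bars) for 12 genes called against sham only in hearts with cells, with axes starting at 0. H2-Ab1, Ciita, Mrc1, Ccl12 and Mmp3 are lower with cells than in all 6 other libraries, and the other 7 genes are higher.

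Of the 399 genes called only with cells, 96 differed at least 2-fold from sham, 31 higher and 65 lower. Among those that rose, Hamp, hepcidin, the hormone that limits iron export and that cardiomyocytes also make, shares 33.7% of its 31-base words with other genes and was at 3.38, 2.14 and 2.38 CPM in sham, 3.84, 1.88 and 2.12 CPM in ligation and 9.79, 11.7 and 7.49 CPM with cells. Rxfp1, the relaxin receptor, was at 1.07, 1.81 and 1.75 CPM in sham and 6.67, 9.02 and 5.91 CPM with cells. Fgf12, an intracellular modulator of sodium channels, was at 2.49, 2.64 and 3.81 CPM in sham and 9.08, 10.4 and 12.2 CPM with cells. Shox2, a transcription factor of the sinus node, was at 1.42, 0.659 and 1.9 CPM in sham, 1.92, 1.74 and 1 CPM in ligation and 3.55, 4.44 and 4.75 CPM with cells, and Stard10 of the atrial marker list at 38.3, 39.4 and 41.3 CPM in sham, 42.4, 40.5 and 40.5 CPM in ligation and 67.4, 70.6 and 69.4 CPM with cells. Both rose beside the atrial sum given above, Stard10 by less than 2-fold, so that it is not among the 31. Gkn2, a gastrokine known from the stomach, had no count in the 6 libraries without cells and 1.56, 2.64 and 2.45 CPM with cells, at least 4.42-fold above a level of 3 counts per sham library. Coch, cochlin, was at 2.27, 2.5 and 2.45 CPM with cells against 0.534, 0.659 and 0.635 CPM in sham and 0, 0.579 and 0.5 CPM in ligation.

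Among those that fell, Tlr1, a receptor for bacterial lipoproteins that shares 20% of its 31-base words with other genes, was at 3.56, 3.13 and 2.38 CPM in sham, 3.2, 3.04 and 3.88 CPM in ligation and 1.28, 0.277 and 0.576 CPM with cells. Slfn1, a schlafen gene of lymphoid and myeloid cells, was at 4.63, 2.47 and 1.43 CPM in sham and 0.567, 0.277 and 1.01 CPM with cells. Tnni2, fast skeletal troponin I, was at 1.25, 2.97 and 1.75 CPM in sham, 3.2, 2.46 and 2.38 CPM in ligation and 0.142, 0.555 and 0.576 CPM with cells. Of the 15 skeletal muscle markers 7 were tested, 2 of them higher than sham with cells (Acta1 and Mybpc2) and 2 lower (Tnni2 and Pvalb). Pvalb, parvalbumin of fast muscle, was at 0.178, 0.659 and 0.952 CPM in sham, 3.62, 2.17 and 3.75 CPM in ligation and 0.142, 0 and 0.144 CPM with cells, and Myh4 and Tnnc2 had no count in sham or with cells. The part of skeletal muscle in the Tnni2 result was not tested. Gm14296 and 2610203C22Rik, gene models of which no function is given here, fell too and share 61.7% and 10.6% of their 31-base words with other genes.

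Genes that FOXO factors are known to control were read as a list because of the name of the implanted cells. Of 26 members 12 were higher and 4 lower than sham with cells, a median of 0.11, against 14 higher and 3 lower in ligation, a median of 0.16. Fbxo32, a ubiquitin ligase of muscle wasting, was at 64.1, 60.8 and 71.4 CPM in sham and 133, 139 and 132 CPM with cells, overlapping ligation (152, 139.9 and 136 CPM). Trim63, another such ligase, was called only with cells, at 155, 169.8 and 159 CPM against 117, 122 and 133 CPM in sham and 141, 143 and 122 CPM in ligation, and so were Pdk4, described above, and, in the lower direction, Klf15 (29.1, 36.6 and 33.3 CPM against 39.2, 39 and 39.4 CPM in sham). Irs2, an adaptor of the insulin receptor, was at 5.34, 7.25 and 6.67 CPM in sham, 11.7, 13.7 and 17 CPM in ligation and 25.2, 21.2 and 20.6 CPM with cells. Cdkn1a, Cdkn1b, Bcl2l11 and Gadd45b, genes of growth arrest and cell death, were not called, with log2 differences of 0.09 ± 0.07, -0.12 ± 0.08, -0.02 ± 0.15 and 0.11 ± 0.18. Antioxidant genes had 5 of 24 higher and 9 lower, with a median of -0.09 that turned to 0.07 with library totals alone. Cell cycle genes had 3 of 28 higher and 4 lower. Mki67, a marker of dividing cells, was at 2.31, 2.64 and 4.44 CPM in sham, 8.31, 10.7 and 10 CPM in ligation and 2.27, 3.47 and 1.73 CPM with cells, and with cells it was not called against sham (log2 -0.34 ± 0.33, edgeR adjusted p 0.442).

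The largest rises over sham included matrix and epithelial genes. Col6a5, a collagen VI chain, was at 0.534, 0.824 and 1.27 CPM in sham and 32.3, 36.2 and 35.7 CPM with cells, Lgals7, a galectin of epithelia, at 0.356, 0.165 and 0.159 CPM and 7.52, 5.27 and 5.04 CPM, and Cthrc1, a marker of scar fibroblasts, at 0.356, 0.165 and 0.317 CPM and 5.39, 8.88 and 3.03 CPM. All 3 overlapped ligation. Slpi, a protease inhibitor, rose 15.6-fold and Egr3, of the immediate-early list, 15.9-fold.

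The largest falls were of another kind. Trim12a, a TRIM family gene, was at 8.54, 9.56 and 7.14 CPM in sham and had no count in any of the 6 ligated libraries, at least 19.8-fold lower with cells at a level of 3 counts per library. Cyp1a1, a target of the aryl hydrocarbon receptor, was at 4.45, 4.28 and 6.51 CPM in sham and likewise had no count in the ligated libraries, at least 12-fold lower with cells on the same basis. Gm4841, an interferon-inducible GTPase gene model, was at 287, 273 and 294 CPM in sham, 29.2, 34.1 and 37.8 CPM in ligation and 3.12, 3.61 and 3.31 CPM with cells, and Gm12185 followed the same order. The rest were the ribosomal protein genes Rpl29, Rpl21, Rpl34 and Rps18, the alpha-globin gene Hba-a2 and the olfactory receptor gene Olfr1033. Rpl29, for one, was at 120.1, 117 and 99.4 CPM in sham, 1.7, 1.59 and 2 CPM in ligation and 0.851, 1.39 and 0.72 CPM with cells. Of the 32 genes at least 8-fold lower, 22 share at least 10% of their 31-base words with another gene, against 12 of the 70 genes at least 8-fold higher and 23.6% of all genes tested, so the counts of those 22 are uncertain. Counts are uncertain for the same reason, at 10% or more, in Myh6, Myh7, Ccn2, Spp1, Oxct1, Gapdh, Ldha, Acadvl, mt-Co1, Fcgr3, H2-DMb1, H2-DMb2, Fosl1 and Jund, and in Myh4, Tnnc2 and H2-Oa, which had no count with cells.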

How the data were processed

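RNA-seq libraries were made from total RNA (TRIzol, NEBNext Ultra RNA kit, per the labels' protocols). The deposited values are raw counts per Ensembl gene ID, 1 file per library, not normalized. The submitters' processing notes name the mm10 build, and the aligner, the counter and its strand setting are not given in the sources used here, so overlapping and antisense genes cannot be told apart. Per file, 5 summary lines that name no gene were dropped; reads assigned to no feature were 4.14% to 4.91% and ambiguous reads 8.09% to 8.72% of the reads listed. Symbols came from GENCODE M21 for 53274 of 53465 IDs, as did the share of each gene's 31-base words found in another gene. Groups and replicate numbers follow the titles. No molecular identifiers are named, so floors of 3 counts cover counting error only.

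Genes were kept with filterByExpr and fitted with edgeR 4.0.16 (R 4.3.3) by quasi-likelihood over all 9 libraries, 1 mean per group, TMM factors, two-sided tests and Benjamini-Hochberg adjustment over 13825 genes. CPM are TMM-scaled, and the SE of a log2 fold change is its size over the root of the F statistic. The 41 lists (28 process lists, 13 marker lists, 745 symbols, 744 matched, 631 tested) were read by counts and medians, without set tests. The members and lists were chosen with earlier results of these data known. Named genes have an adjusted p under 0.05, a mean of at least 5 CPM in the higher group and no overlap between the 2 groups. From these come the 10 largest changes per direction and, with 2 CPM sufficing, 8 per direction called only with cells. Also taken were the 5 most abundant genes per direction called in both ligated groups with the same sign and at least 2-fold from sham with cells. Per list, the 2 largest changes and the 2 most abundant members were added, and 30 fixed genes whatever their values. Other list members were chosen after their values were seen.

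Alternatives were DESeq2 1.42.0, limma-voom (limma 3.58.1), other scalings and filters, 2-group fits, mitochondrial genes left out, a replicate block and each library left out. Alternatives chosen after seeing the data were to add up libraries with paired column names and to leave out genes that share sequence. Replicate numbers did not pair the samples, since the same-numbered deviations of cells and sham correlated at -0.047, -0.079 and -0.021 over 9416 genes. Tested on simulated counts of 13825 genes, the fit recovered 162 of 200 genes changed by 1 on the log2 scale with 17 false calls, 101 of 200 changed by 0.5 with 10, and made 0 calls without change. An exact two-sided permutation test of the mitochondrial share, 5.26 points lower with cells than in sham, gave p = 0.1, the smallest that 3 against 3 can reach. Figures were drawn with matplotlib 3.10.9. Some results are not reported here.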

Additional observations from a re-analysis of the deposited data

How the results depend on the processing

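The count of 5661 genes called against sham stayed between 4388 (sequence-sharing genes left out) and 6310 (library totals alone), with 4786 in DESeq2, 5640 in limma-voom and 5037 to 5695 when single libraries were left out. The count of 399 genes called only with cells was 283 in DESeq2, 292 with library totals alone (186 of them shared with the 399) and 274 to 373 with single libraries left out, its 193 higher genes being 123 to 183, so membership of that class depends on the scaling. Library totals alone gave 4612 higher and 1698 lower genes against 2899 and 2762. With the replicate block 5511 genes were called and 349 only with cells; the numbers are shared titles only, no library with a number correlated best with its own number, and a lost call there is not a weaker effect. Of 190 named genes, 21 lost their call under some alternative, 10 gained one and 9 changed sign.

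Some log2 medians and genes changed sign, among them the skeletal muscle markers, at -0.32 over all libraries. With library totals alone the values became 0.155 for ion channels, 0.0555 for glycolysis, 0.131 for branched-chain amino acid and ketone genes, 0.0384 for neutrophil genes, 0.0232 for the cell cycle, 0.0709 for antioxidant genes, 0.143 for the T cell list (which is Cd28 alone), 0.0257 for Acat1, 0.102 for Actc1, 0.101 for Gsn, 0.0470 for Lyz2 and 0.0117 for Ppargc1a. Ion channels gave 0.00462 with paired libraries summed and 0.00480 without a filter. Cd28 gave 0.0238 in limma-voom and 0.0134 with the replicate block. Without mitochondrially encoded genes the fibroblast median was -0.0119 and Col4a1 -0.00807. With single libraries left out, the median of cardiac ion channels and connexins ranged from -0.0444 to 0.0135, fibroblast genes from -0.0520 to 0.0942, the median of branched-chain amino acid and ketone genes from -0.0557 to 0.0192, skeletal muscle markers from -0.566 to 0.0414, Cd28 from -0.228 to 0.286, B cell markers from -0.108 to 0.252, Ckm from -0.00220 to 0.0439, Col4a1 from -0.0227 to 0.0394 and Lcn2 from -0.0950 to 0.188. The cause of these changes was not tested. At this depth the simulated fit recovered 162 of 200 genes changed by 1 on the log2 scale, so a gene not called is not shown to be unchanged.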

Other observations

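Ribosomal protein genes, a group chosen after its values were seen, were lower in both ligated groups. Of 80 tested, 68 were lower and 0 higher with cells than in sham in edgeR's test, with a median log2 fold change of -0.47, and the median of ligation against sham was -0.46. Their summed level was 30652 to 31607 CPM in sham, 21927 to 23432 CPM in ligation and 21582 to 23303 CPM with cells. Of the 80 genes 70 share at least 10% of their 31-base words with another gene, and of the 10 that do not, 8 were lower, with a median of -0.52. With library totals alone the median was -0.31 and 61 were lower.

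Mast cell markers had 3 of 5 tested genes lower than sham with cells and 0 higher, with summed levels of 23.8 to 25.2 CPM in sham, 21.5 to 23.4 CPM in ligation and 12.1 to 17.1 CPM with cells. Circadian clock genes had 6 of 18 higher and 3 lower, a median of 0.06. Cartilage and bone markers had 4 of 7 higher and 0 lower, with summed levels of 113 to 125 CPM in sham, 375 to 398 CPM in ligation and 378 to 381 CPM with cells, and Comp is one of them.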
